A study of Mus musculus with 48 samples.

Results

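The 10 genes described here encode the intermediate filament proteins of brain cells. They were picked as named members of 1 gene family with earlier results of these data known, the rule itself uses no measured value, and they are 10 of 46983 genes listed and of 19970 genes tested. The 4 glial filament genes are Gfap, Vim, Nes and Synm, the 4 neuronal filament genes are Nefl, Nefm, Nefh and Ina, and the 2 nuclear lamin genes are Lmna and Lmnb1. All 10 passed the filter on low counts.

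Their RNA was counted in 48 libraries of brain tissue from male C57Black/6 mice aged 3 months, made with a kit that reads the 3′ end of polyadenylated RNA. The 11 groups are a control of intact cortical tissue without surgery (4 libraries) and, at 3 h, 12 h, 24 h, day 3 and day 7, a sham group (surgery without closing the artery, 4 libraries each) and a group with permanent occlusion of the middle cerebral artery (MCAO, 5 libraries each, 4 at 24 h). In MCAO the artery was coagulated and cut, which leaves a small cortical infarct, and the dissected piece held tissue outside the infarct as well. The labels speak of the injured cortical region and the series text of forebrain hemispheres, so how much of the brain a library held is not certain. Replicates came from separate mice by the study's account, and the p-values below measure the spread between these libraries.

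Intermediate filaments are flexible protein ropes that give cells mechanical strength, and each cell type builds them from its own genes. GFAP, vimentin, nestin and synemin form the filaments of astrocytes, and astrocytes near an injury are known to enlarge them. The neurofilament subunits and alpha-internexin fill axons and set their calibre, and lamins form the meshwork beneath the nuclear membrane of every cell. Vimentin is also the main filament of fibroblasts, endothelial cells and blood-derived immune cells, so its RNA does not mark astrocytes alone.

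Positions are those of GRCm38 in Gencode vM21. Gfap lies at chr11:102887336-102900912 (minus strand), Vim at chr2:13573927-13582826 (plus), Nes at chr3:87971078-87980451 (plus) and Synm at chr7:67730160-67759742 (minus). Nefl lies at chr14:68083863-68089095 (plus), within the span of Nefm at chr14:68082590-68124846 (minus), Nefh at chr11:4938754-4948064 (minus) and Ina at chr19:47014698-47025327 (plus). Lmna lies at chr3:88480147-88509956 (minus). Gfap shares its span with the non-coding gene Gm26668 on the other strand, and reads of genes that overlap on opposite strands cannot be told apart if the counting ignored strand, which is not given in the sources used here.

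The sequence just before the start is shown for Gfap, Nes and Ina, 3 members that passed the test against sham at some time. It comes from the RefSeq promoter table (GRCm38.p6), which holds 6 of the 10 members, and Nefl, Nefm, Nefh and Lmnb1 are not in it. The window of Vim lies wholly within an annotated exon and is not shown. Each stretch has 260 bases, 250 of them before the RefSeq start, written 5′ to 3′. Capitals mark matches to TTCNNNGAA, a pattern that STAT factors can bind, in Gfap, and to the GC box GGGCGG (or CCGCCC on the other strand) in Nes and Ina. The Gfap stretch is chr11:102897191-102897450 on the minus strand, and it lies within the gene as annotated, outside annotated exons except for its last 10 bases. The Nes stretch is chr3:87970843-87971102 on the plus strand, and the Ina stretch is chr19:47014431-47014690 on the plus strand.
Gfap: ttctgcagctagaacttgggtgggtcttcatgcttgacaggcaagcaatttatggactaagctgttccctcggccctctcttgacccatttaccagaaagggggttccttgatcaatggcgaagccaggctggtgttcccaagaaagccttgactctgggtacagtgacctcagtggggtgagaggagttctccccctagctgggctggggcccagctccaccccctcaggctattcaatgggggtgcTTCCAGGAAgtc
Nes: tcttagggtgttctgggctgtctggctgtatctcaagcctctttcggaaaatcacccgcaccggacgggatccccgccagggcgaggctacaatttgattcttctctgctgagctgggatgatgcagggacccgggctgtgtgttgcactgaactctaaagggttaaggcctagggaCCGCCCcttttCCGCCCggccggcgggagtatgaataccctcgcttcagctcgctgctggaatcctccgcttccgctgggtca
Ina: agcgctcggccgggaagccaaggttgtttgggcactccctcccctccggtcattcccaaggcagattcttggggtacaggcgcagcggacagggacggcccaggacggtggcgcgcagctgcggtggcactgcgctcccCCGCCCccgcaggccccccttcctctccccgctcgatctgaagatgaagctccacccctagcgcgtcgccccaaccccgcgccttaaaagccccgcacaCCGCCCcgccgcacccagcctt

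Both strands were searched for 4 patterns in the windows of 300 bases around the start. TTCNNNGAA was found in 8.3% of all 32851 windows and, among the members, in Gfap, where it ran from 2 bases before to 7 bases after the start. TGANTCA, the AP-1 pattern, was found in 7.81% of the windows and in Lmna. GGGCGG was found in 35.7% of the windows and in Nes, Ina and Lmna, and TATAAA in 13.6% and in Vim, 32 to 27 bases before its start. A match is a description of letters and says nothing of binding.

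Of the 10 genes, 6 were called at some time in MCAO against sham of the same time. A call needed an adjusted p under 0.01 over all genes (edgeR) and an absolute log2 fold change over 0.58. Shares of all genes are given time by time. At 3 h none was called, while 0.0901% of all genes tested were called higher and 0.02% lower. Gfap was the member called at 12 h, when 0.346% of all genes were called higher and 0.0651% lower, and again at 24 h, when the shares were 0.0801% and 0.01%. On day 3, Gfap, Vim, Nes and Lmnb1 rose, 4 of the 10 members against 3.76% of all genes (0.26% lower). On day 7, Gfap and Vim were higher (2.07% of all genes) and Nefm and Ina were lower (1.43% of all genes). The calls of Nefm and Ina were lost in 7 and 10 of 16 alternatives, and neither was called against control. Synm, Nefl and Lmna were called at no time against sham, under any alternative run, and Nefh was called on day 7 when no filter on low counts was used. The split of all genes moved with the scaling: it was 750 higher and 52 lower on day 3 and 413 and 285 on day 7, and 463 and 131, and 403 and 86, when libraries were scaled by the spike-in RNA.

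The median log2 fold change of the 4 glial genes against sham was 0.69 at 3 h, 1.46 at 12 h, 1.63 at 24 h, 3.35 on day 3 and 1.96 on day 7. For the 4 neuronal genes it was 0.07, -0.16, -0.21, -0.16 and -0.78 at the same times. The median over all genes tested lay between 0 and 0.056 in these comparisons.

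**Figure D1:**
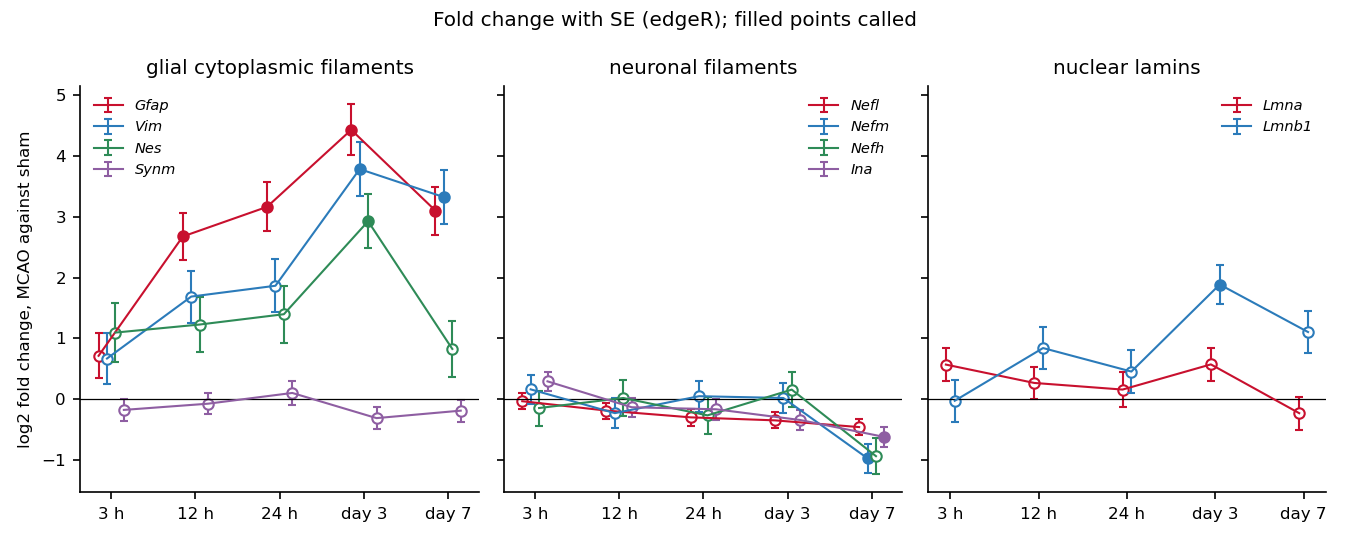
Log2 fold change of each gene in MCAO against sham at 5 times, in 3 panels for glial filaments, neuronal filaments and nuclear lamins. Bars are 1 SE, derived from the edgeR test. Filled points passed the test, and the glial panel rises to 4.42 for Gfap on day 3 while the neuronal panel stays between -0.97 and 0.30.

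Gfap encodes a filament protein of astrocytes, which the study stained as a marker of their reactivity. Its RNA was 49.8 ± 14.95 CPM in the controls (counts relative to the library total, scaled by TMM; SD, n = 4). In the 24 libraries without MCAO it lay between 22.9 and 100.5 CPM, and in the 5 MCAO libraries at 3 h it was 65.1, 88.3, 66.3, 129 and 88.8 CPM (replicates A to E). The 3 h libraries overlapped with their shams (40.7, 53.0, 77.1 and 42.5 CPM), and the fold change of 0.72 ± 0.37 (log2, SE) did not pass the test (edgeR, adjusted p = 0.61).

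At 12 h the sham libraries had 100.5, 59.96, 22.9 and 42.8 CPM of Gfap and the MCAO libraries 193, 438, 422, 468 and 262 CPM. At 24 h the values were 73.4, 37.3, 39.0 and 79.2 CPM in sham and 473, 398, 367 and 821 CPM after MCAO. From 12 h on, every MCAO library lay above all 24 libraries without MCAO. Gfap rose by 2.67 ± 0.38 (log2, SE) at 12 h and by 3.16 ± 0.40 at 24 h (edgeR, adjusted p = 5.5e-05 and 2.2e-06).

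Day 3 had the highest mean of Gfap, 838 ± 405 CPM (SD, n = 5). The MCAO libraries had 192, 698, 1184, 1087 and 1030 CPM, and the shams 39.9, 39.7, 44.8 and 31.4 CPM. Replicate A stood far below the other 4 and yet above every sham. Gfap rose by 4.42 ± 0.42 (log2, SE) with replicate A and 4.68 without it (edgeR, adjusted p = 5.3e-10 and 6.7e-13), and the ratio of the means was 21.5.

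On day 7, Gfap was at 411, 537, 146, 403 and 561 CPM after MCAO and at 40.03, 51.3, 40.9 and 59.3 CPM in sham. The groups did not overlap, and replicate C was the low one. Gfap was higher by 3.10 ± 0.39 on the log2 scale (edgeR, adjusted p = 2.3e-06). Between day 3 and day 7 the effect differed by -1.33 ± 0.52 on the log2 scale, which did not pass the test (edgeR, adjusted p = 0.20).

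General astrocyte markers and genes of reactive astrocytes are given beside Gfap. The 10 astrocyte markers (such as Aqp4, Aldh1l1 and Slc1a3) had a summed level of 5136 to 5322 CPM in MCAO and 5578 to 5981 CPM in sham at 3 h, of 4933 to 5963 and 5635 to 6685 CPM at 12 h, and of 4911 to 5357 and 5859 to 6388 CPM at 24 h. The MCAO sum was thus below all shams at 3 h and at 24 h, while Gfap was called higher at 24 h, and none of the 10 markers was called by edgeR at 3 h, 12 h or 24 h. Their sum was 4102 to 5782 CPM in MCAO and 5555 to 5895 CPM in sham on day 3, and 4457 to 6271 and 5301 to 6527 CPM on day 7, and no marker was at 0 in all libraries of a group. Of these markers, 1 was called higher on day 3 and 2 on day 7, and none lower. Their median log2 fold change from 3 h to day 7 was -0.07, -0.01, -0.17, 0.14 and 0.23. The sum is weighted to the most abundant markers, so it can fall where the median does not. The 10 genes of reactive astrocytes (such as Serpina3n, Cd44 and Timp1) summed to 28.5 to 50.6 CPM in sham and to 101 to 384 CPM after MCAO at 12 h, with 4 genes called higher. At 24 h they summed to 37.2 to 44.6 CPM in sham (Steap4 at 0) and to 164 to 319 CPM after MCAO, with 2 genes called higher. On day 3 this list lay at 56.05 to 733 CPM against 24.8 to 42.0 CPM in sham (Steap4 at 0), with 7 genes called higher, and replicate A held its lowest value as it did for Gfap. On day 7 it lay at 96.2 to 245 CPM against 28.7 to 33.2 CPM, with 3 genes called higher. The study also placed Serpina3n in oligodendrocytes and saw several cell sources of its protein. It named Timp1 for an oligodendrocyte state, so these 10 genes do not mark astrocytes alone. More astrocytes and more Gfap RNA in each of them cannot be told apart in such tissue libraries, and neither can fewer neurons and less RNA per neuron for the genes described below.

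**Figure D2:**
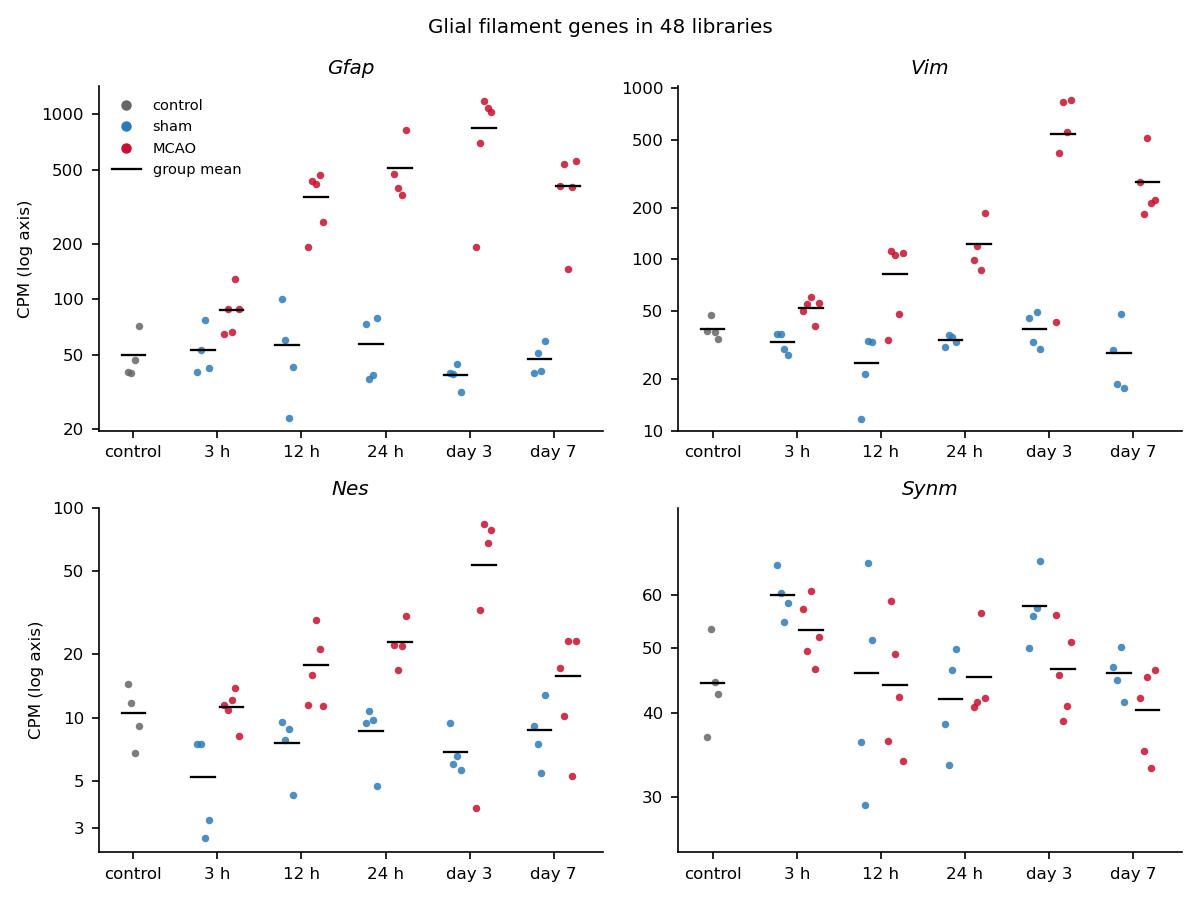
CPM of the 4 glial filament genes in each of 48 libraries (points; log axes that differ between panels) by time, with control, sham and MCAO in colour and group means as lines. Gfap after MCAO lies above all sham libraries from 12 h on, 1 library of day 3 sits near the shams for Vim and Nes, and Synm overlaps between MCAO and sham at every time.

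Vim encodes vimentin, which astrocytes share with many cells of mesenchymal origin. Control libraries had 37.9, 47.2, 37.8 and 34.2 CPM. At 3 h all 5 MCAO libraries (50.03, 55.2, 59.98, 40.9 and 55.6 CPM) lay above the shams (36.8, 36.8, 30.0 and 27.8 CPM), but the log2 fold change of 0.67 ± 0.42 did not pass the test (edgeR, adjusted p = 0.70). How many of all genes separate in this way was not counted, and 8.45% had an unadjusted p under 0.05 (edgeR) at 3 h.

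At 12 h, Vim had 33.7, 112, 106, 48.2 and 108 CPM after MCAO and 11.7, 21.4, 33.2 and 32.7 CPM in sham. At 24 h it had 99.8, 121, 86.8 and 188 CPM against 30.8, 36.0, 35.4 and 33.0 CPM. The groups did not overlap at either time, although replicate A at 12 h was hardly above the highest sham. As at 3 h, the share of all genes that separate in this way was not counted. The log2 fold changes of 1.69 ± 0.43 and 1.86 ± 0.44 were not called (edgeR, adjusted p = 0.030 and 0.046), and the call at these times depended on the settings: Vim passed at 12 h with DESeq2 (adjusted p = 0.008447), at 24 h with only the groups compared in the fit (adjusted p = 0.00049), and at both times with no filter on low counts (edgeR, adjusted p = 0.00101 and 0.00063).

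On day 3, Vim reached 43.2, 419, 833, 553 and 859 CPM in the MCAO libraries, against 45.3, 32.8, 49.0 and 30.0 CPM in sham. Replicate A was within the range of the shams and the other 4 were far above it. Vim rose by 3.78 ± 0.44 on the log2 scale (edgeR, adjusted p = 5.1e-08), or by 4.08 without replicate A. On day 7 the MCAO libraries had 282, 185, 514, 213 and 222 CPM and the shams 29.7, 18.7, 47.97 and 17.8 CPM, with no overlap and with replicate C the highest. Vim was higher by 3.32 ± 0.44 on the log2 scale (edgeR, adjusted p = 2.8e-06), or 2.99 without replicate C.

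The balance of Gfap and Vim differed between libraries. Gfap made up 55.2 ± 9.3% of the sum of both genes in the controls. After MCAO it made up 61.6 ± 8.8% at 3 h, 81.2 ± 7.4% at 12 h, 80.4 ± 2.5% at 24 h, 64.7 ± 10.4% on day 3 and 58.6 ± 21.2% on day 7. In sham the shares were 60.99 ± 8.1%, 65.2 ± 21.1%, 61.1 ± 10.9%, 50.1 ± 3.6% and 63.4 ± 14.4% at these times, so that the mean on day 7 was lower after MCAO than in sham, with overlap. Replicate C of day 7 was at 22.2%, while the other 4 of that group were between 59.3% and 74.4%. In the same library the 10 fibroblast markers summed to 6122 CPM (249 to 655 CPM in the other 4, 97.2 to 195 CPM in sham), the 10 markers of peripheral myeloid cells to 4135 CPM (116 to 211 CPM in the other 4, 15.1 to 21.0 CPM in sham) and the 10 microglia markers to 3792 CPM (904 to 1274 CPM in the other 4, 434 to 587 CPM in sham). None of these markers was at 0 in all day 7 MCAO libraries, Ly6c2, Plac8 and Arg1 were at 0 in all day 7 shams, and 6, 3 and 6 of the respective 10 were called higher on day 7. What part these cells have in the Vim counts was not tested.

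On day 3, replicate A was lowest in 2 of these lists as it was for Vim. The microglia markers summed to 692 CPM in replicate A and to 1386 to 2741 CPM in the others, and 8 of the 10 were called higher. The peripheral myeloid markers summed to 36.8 CPM in replicate A and to 282 to 1654 CPM in the others, with 7 of the 10 called higher. The fibroblast markers were lowest in replicate D (145 CPM), with 246 CPM in replicate A and 469 to 1486 CPM in the other 3, and 3 of the 10 were called higher. Endothelial markers, whose cells also use vimentin, were between 357 and 746 CPM after MCAO and between 377 and 391 CPM in sham, with 2 of the 10 called higher.

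**Figure D3:**
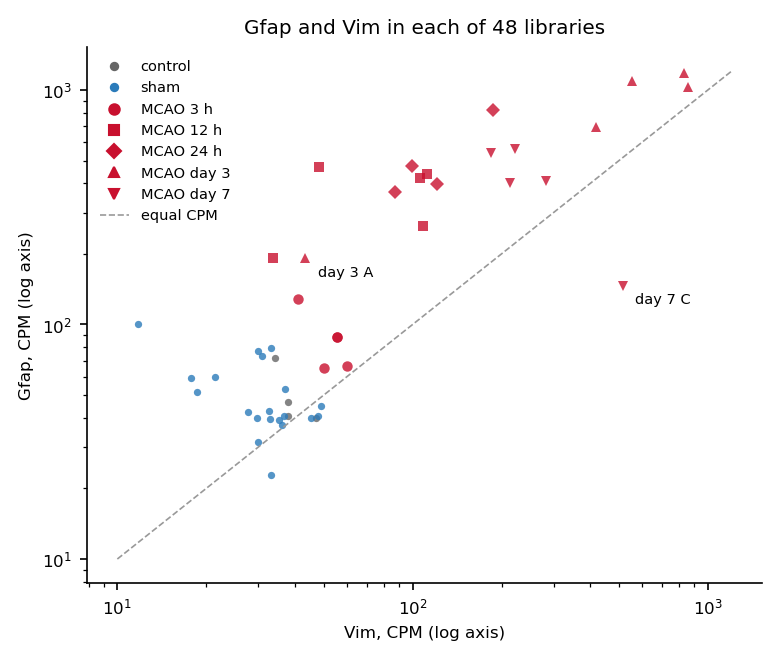
Gfap against Vim in CPM on log axes, 1 point per library, with the 5 MCAO times in separate symbols and a dashed line where both are equal. Most MCAO libraries lie above the line, 1 library of day 3 (A) lies at 192 and 43.2 CPM, and 1 library of day 7 (C) lies below it at 146 CPM of Gfap and 514 CPM of Vim.

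Nes encodes nestin, the filament of neural stem cells that reactive astrocytes and new vessels can also make. It was the least abundant glial filament gene, with 2.69 to 14.5 CPM in the 24 libraries without MCAO. On day 3 the MCAO libraries had 3.74, 32.5, 83.4, 67.9 and 78.4 CPM and the shams 9.43, 6.0, 6.54 and 5.62 CPM. Replicate A was below every sham and the other 4 were above every library without MCAO.

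Nes rose on day 3 by 2.92 ± 0.45 on the log2 scale (edgeR, adjusted p = 1.1e-05), or by 3.22 without replicate A. At 3 h, 12 h and 24 h every MCAO library lay above its shams, yet the log2 fold changes of 1.096 ± 0.49, 1.23 ± 0.45 and 1.40 ± 0.47 did not pass the test (edgeR, adjusted p = 0.54, 0.17 and 0.27). How many of all genes separate in this way was not counted. An unadjusted p under 0.05 (edgeR) was found for 8.45%, 14.6% and 8.8% of all genes at these times. The shams of 3 h were low for Nes, at 5.24 ± 2.6 CPM (SD, n = 4) against 10.55 ± 3.3 CPM (n = 4) in the controls and 11.3 ± 2.0 CPM (n = 5) in MCAO. Against control the log2 fold change at 3 h was 0.0989 ± 0.45 (edgeR, adjusted p = 0.99), and 0 of the 5 MCAO libraries lay above all 24 libraries without MCAO. On day 7 its values of 17.3, 10.2, 23.2, 5.28 and 23.2 CPM overlapped with those of sham (9.15, 7.47, 5.45 and 12.8 CPM), and the log2 fold change was 0.83 ± 0.46 (edgeR, adjusted p = 0.27). The difference in effect between day 3 and day 7, -2.10 ± 0.63 on the log2 scale, was not called either (edgeR, adjusted p = 0.10). The 10 proliferation markers had a summed level of 35.2 CPM in replicate A of day 3, 243 to 472 CPM in the other 4 and 12.7 to 23.9 CPM in sham (Bub1 at 0), and 8 of the 10 were called higher. What they have to do with the Nes counts was not tested.

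Synm encodes synemin, a large filament protein that needs vimentin or a partner of its kind to assemble. Its group means lay between 40.4 CPM (MCAO day 7) and 59.96 CPM (sham 3 h), and its counts may include reads of the overlapping gene Ttc23 on the other strand. On day 3 the MCAO libraries had 56.05, 45.6, 38.9, 41.0 and 51.1 CPM and the shams 50.04, 55.9, 57.5 and 67.5 CPM, with 3 MCAO libraries below all shams. On the log2 scale the difference was -0.31 ± 0.17 (edgeR, adjusted p = 0.31), and at the other times it was between -0.19 and 0.10 (edgeR, adjusted p = 0.57 to 0.93).

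Nefl encodes the light neurofilament subunit, without which neurofilaments do not assemble. Its control libraries had 719, 541, 516 and 713 CPM. On day 3 the MCAO libraries had 517, 506, 475, 514 and 459 CPM, all below the shams (683, 670, 592 and 566 CPM). On day 7 they had 456, 408, 400.3, 469 and 563 CPM against 709, 516, 544 and 748 CPM in sham, and replicate E overlapped.

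The log2 fold changes of Nefl against sham were -0.03 ± 0.13 at 3 h, -0.18 ± 0.13 at 12 h, -0.30 ± 0.14 at 24 h, -0.34 ± 0.13 on day 3 and -0.46 ± 0.13 on day 7. None was called (edgeR, adjusted p = 0.99, 0.56, 0.53, 0.10 and 0.022), and the size on day 7 was below the limit of 0.58. On day 3, 4 of the 5 libraries and on day 7, again 4 of the 5 lay below all 24 libraries without MCAO. How many of all genes separate in this way, or from the shams alone as Nefl did on day 3, was not counted. Reads of Nefl and Nefm may be mixed where the genes overlap.

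Nefm encodes the medium subunit, whose long tail sets the spacing of neurofilaments. On day 7 the MCAO libraries had 158, 150.1, 130.3, 158 and 178 CPM and the shams 367, 241, 262 and 343 CPM. All 5 lay below all 4 shams, and the ratio of the means was 0.511. Nefm fell by 0.97 on the log2 scale (SE 0.24; edgeR, adjusted p = 0.0074). The call was lost with spike-in scaling and without any 1 of MCAO replicates A, B, C and D or sham replicates A and D, with log2 values of -0.86 to -0.98 and adjusted p of 0.013 to 0.033 in these 7 settings.

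Up to day 3 Nefm was not called, with log2 fold changes of 0.16 ± 0.24 at 3 h, -0.23 ± 0.24 at 12 h, 0.05 ± 0.26 at 24 h and 0.02 ± 0.24 on day 3 (edgeR, adjusted p = 0.93, 0.72, 0.99 and 0.98). The spread among libraries without MCAO was wide. Controls had 300.2, 217, 167 and 315 CPM, and the shams of 3 h had 429, 183, 142 and 368 CPM. In both groups replicates A and D were high and B and C low. The shams of day 3 and day 7 also had A and D higher. In the shams of 12 h B and D were alike (291 and 289 CPM). In those of 24 h D was the lowest (278, 264, 250 and 139 CPM).

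Nefh encodes the heavy subunit, which is added late in axon maturation. Replicates A and D of the controls were high for it too (127, 64.1, 51.9 and 131 CPM). On day 7 the MCAO libraries had 46.7, 60.05, 35.1, 69.1 and 71.4 CPM and the shams 106, 72.8, 91.0 and 162 CPM, again with all 5 below all 4. The difference was -0.93 ± 0.29 on the log2 scale (edgeR, adjusted p = 0.033), which was not called. With no filter on low counts it was -0.96 and was called (edgeR, adjusted p = 0.0067). At the earlier times the difference lay between -0.26 and 0.16 (edgeR, adjusted p = 0.81 to 0.99). Over the 24 libraries without MCAO, deviations of Nefm and Nefh from their group means had a Pearson r of 0.89, as a description of libraries that share tissue piece and depth.

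Ina encodes alpha-internexin, the neuronal filament that appears first in development. At 3 h the MCAO libraries had 859, 534, 537, 476 and 569 CPM, of which replicate A stood alone, and the shams had 509, 448, 399.7 and 581 CPM. The log2 fold change was 0.30 ± 0.16 (edgeR, adjusted p = 0.63). On day 7 the values were 322, 278, 216, 245 and 315 CPM after MCAO and 428, 387, 339 and 534 CPM in sham, with no overlap.

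Ina fell on day 7 by 0.62 on the log2 scale (SE 0.16; edgeR, adjusted p = 0.0092), and the ratio of the means was 0.652. This call was lost in 10 of 16 alternatives, among them the fits without MCAO replicate B, C or D or sham replicate A, B or D, with log2 values of -0.50 to -0.65 and adjusted p of 0.016 to 0.089. With spike-in scaling it was -0.48 (edgeR, adjusted p = 0.13). Ina overlaps Nt5c2 on the other strand.

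**Figure D4:**
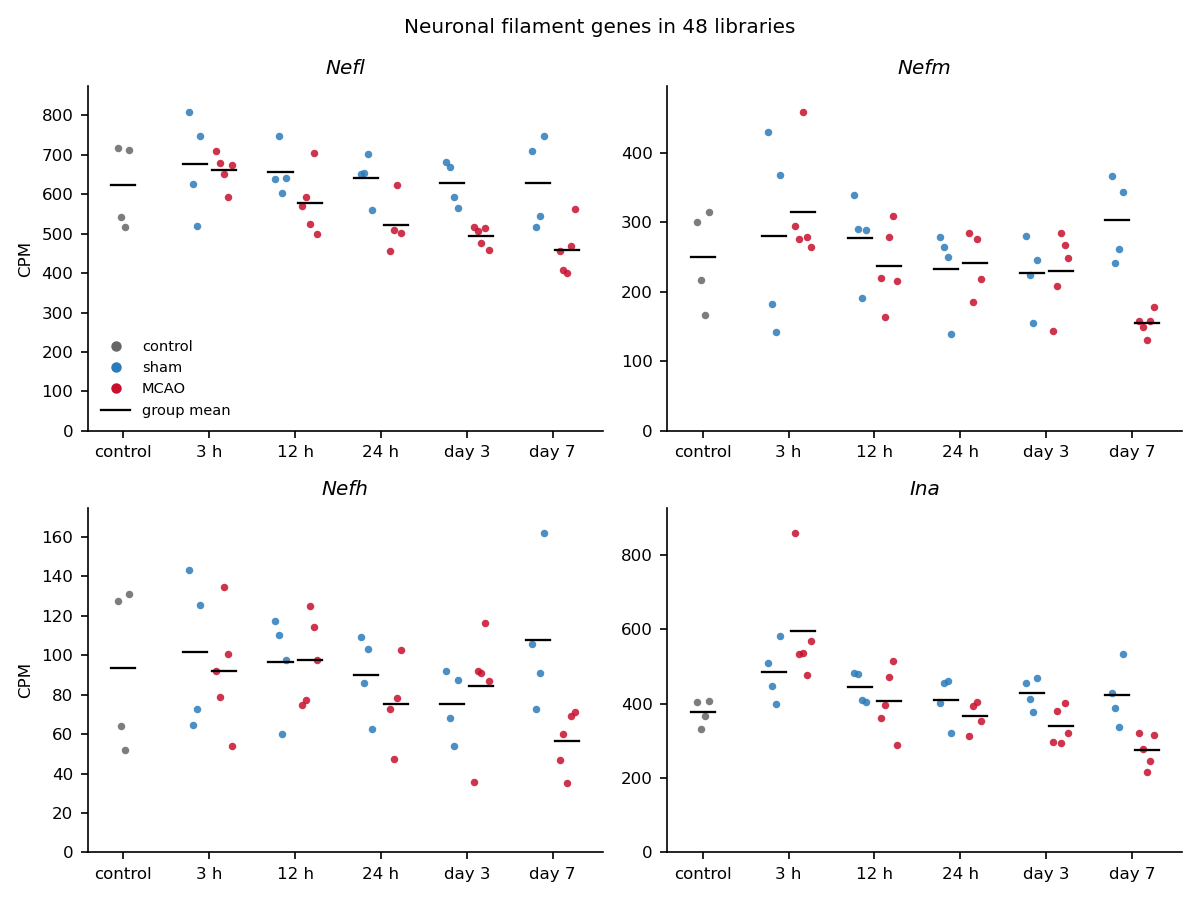
CPM of the 4 neuronal filament genes in each of 48 libraries (points; linear axes from 0) by time, with control, sham and MCAO in colour and group means as lines. On day 7 the 5 MCAO libraries lie below the 4 shams for Nefm, Nefh and Ina, and 4 of the 5 do for Nefl. How many of all genes separate in this way was not counted, and 23.5% had an unadjusted p under 0.05 (edgeR) that day.

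The 10 neuron markers (such as Rbfox3, Snap25 and Map2) are given beside these genes. Their summed level was 5993 to 9245 CPM in MCAO and 9730 to 10610 CPM in sham on day 7, with 2 of the 10 called lower, a median log2 fold change of -0.31 and none at 0. Against this sum, the log2 ratio of Nefm was -5.72 ± 0.12 (SD, n = 5) after MCAO and -5.09 ± 0.28 (n = 4) in sham on day 7, without overlap. For Ina it was -4.90 ± 0.17 and -4.61 ± 0.25, for Nefl -4.16 ± 0.18 and -4.03 ± 0.24, and for Nefh -7.22 ± 0.25 and -6.62 ± 0.44, with overlap for Ina, Nefl and Nefh. On day 3 the sum was 6393 to 9631 CPM in MCAO and 9608 to 10680 CPM in sham, with 1 of the 10 called lower and a median log2 fold change of -0.33. The ratios of that day were higher after MCAO in the mean for all 4 genes, and overlapped. They were -5.10 ± 0.63 and -5.52 ± 0.31 for Nefm, -6.61 ± 0.84 and -7.11 ± 0.31 for Nefh, -4.51 ± 0.29 and -4.57 ± 0.10 for Ina, and -3.96 ± 0.19 and -4.02 ± 0.10 for Nefl. Markers of striatal neurons, which can enter a piece of cortex, varied strongly, from 200 to 2233 CPM in MCAO and 548 to 1858 CPM in sham on day 7, and what part the cut of the tissue has in the neuronal genes was not tested.

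Shares of the 4 genes in their sum describe the make-up of the neuronal filament RNA. Nefl made up 46.4 ± 0.6% of the 4 genes in the controls and 43.4 ± 4.9% after MCAO on day 3, and Ina 28.5 ± 3.4% and 29.5 ± 2.5%. On day 7 Nefm made up 16.4 ± 0.45% after MCAO (15.8% to 16.8%) and 20.7 ± 1.6% in sham (19.2% to 22.8%), and Nefl 48.6 ± 2.5% and 43.1 ± 1.1%, so that neither overlapped. The controls and the shams of the other times ranged from 12.55% to 22.7% for Nefm and from 40.4% to 51.7% for Nefl, which covers the MCAO and the sham values of day 7 but for the highest Nefm share in sham. These shares are of 3′ counts, which depend little on transcript length.

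Lmnb1 encodes lamin B1, a lamin of nearly all nuclei that is abundant in dividing cells. On day 3 the MCAO libraries had 17.6, 48.8, 99.9, 50.3 and 86.8 CPM and the shams 25.4, 13.8, 18.2 and 7.50 CPM. Replicate A was within the shams and the other 4 above all libraries without MCAO. Lmnb1 rose by 1.89 ± 0.33 on the log2 scale (edgeR, adjusted p = 7.7e-05), or by 2.12 without replicate A, and missed the call with only the groups compared in the fit (edgeR, adjusted p = 0.015). On day 7 the libraries had 16.7, 19.3, 52.9, 20.6 and 34.4 CPM against 10.9, 12.6, 16.9 and 12.8 CPM, and the log2 fold change of 1.11 ± 0.34 was not called (edgeR, adjusted p = 0.032). The proliferation markers given for Nes were at 46.3 to 321 CPM on day 7, highest in replicate C as Lmnb1 was.

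Lmna encodes lamins A and C, which the gene count does not separate. Its MCAO libraries had 88.6, 52.4, 76.3, 75.0 and 46.9 CPM at 3 h and the shams 35.6, 42.0, 35.9 and 69.8 CPM, so 3 of 5 lay above the shams. The log2 fold change was 0.57 ± 0.27 at 3 h and again 0.57 ± 0.27 on day 3 (edgeR, adjusted p = 0.56 and 0.19), and -0.23 ± 0.27 on day 7 (edgeR, adjusted p = 0.66). On day 3, replicate E had 117 CPM and the other 4 had 39.5 to 65.4 CPM.

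**Figure D5:**
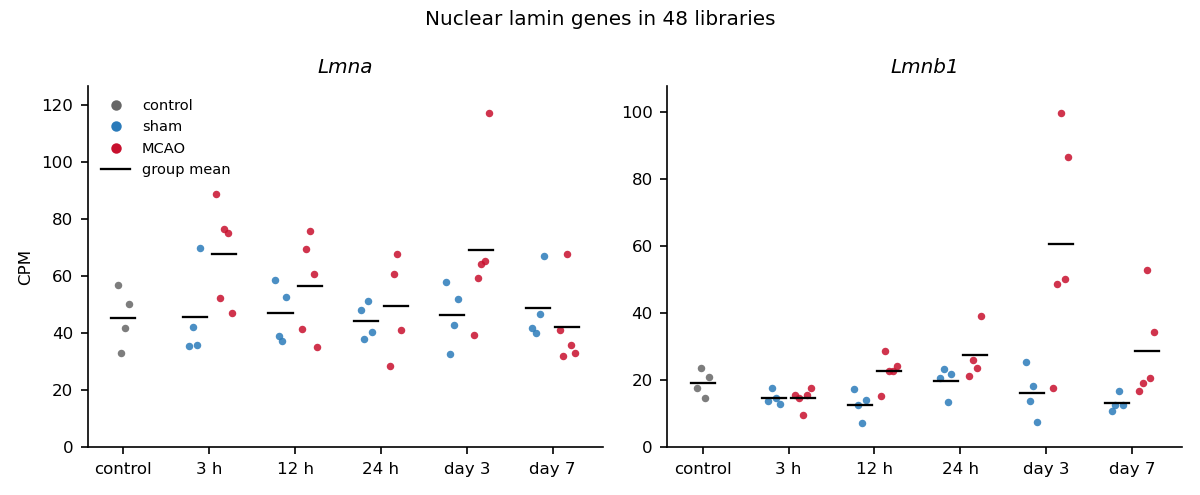
CPM of Lmna and Lmnb1 in each of 48 libraries (points; linear axes from 0) by time, with control, sham and MCAO in colour and group means as lines. Lmnb1 on day 3 lies between 48.8 and 99.9 CPM in 4 MCAO libraries and at 17.6 CPM in the other, and Lmna overlaps between MCAO and sham at every time.

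Against the control, whose 4 libraries serve every time, the glial genes and Lmnb1 were called at the same times as against sham. Gfap was higher at 12 h, 24 h, day 3 and day 7 (log2 fold changes 2.84, 3.37, 4.07 and 3.05), Vim on day 3 and day 7 (3.78 and 2.85), and Nes (2.33) and Lmnb1 (1.65) on day 3 (edgeR, adjusted p = 0.00062 or less). These are 1, 1, 4 and 2 of the 10 members, where 0.386%, 0.12%, 2.81% and 1.09% of all genes were called higher. Nefm and Ina, called against the sham of day 7, were not called against control (log2 fold changes -0.69 and -0.46; edgeR, adjusted p = 0.11 for both). At 3 h no member was called by edgeR (0.115% of all genes higher), and 3 had an unadjusted p under 0.05 (edgeR; 9.14% of all genes). DESeq2 called Ina at 3 h (log2 fold change 0.67, adjusted p = 0.0068), when it called 72 of all genes higher and 8 lower.

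No member was called after sham surgery. Sham against control gave 0 calls among the 10 genes at each of the 5 times with edgeR and also with DESeq2, with 2, 0, 0, 1 and 0 members at an unadjusted p under 0.05 from 3 h to day 7. At that p the shares of all genes were 3.68%, 5.44%, 4.32%, 3.66% and 8.04%. By the adjusted edgeR test, the shares of all genes called were 0%, 0.0351%, 0.01%, 0% and 0% from 3 h to day 7. DESeq2 called 1 gene higher and 10 lower at 12 h, 14 lower at 24 h and 1 lower on day 3. At 3 h and on day 7 it called 0. Likewise, at 3 h MCAO against sham had 2 members (Nes and Lmna) at an unadjusted p under 0.05, against 8.45% of all genes. DESeq2 called 0 members there and 0.29% of all genes.

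No step between neighbouring times was called for any member. The steps were 3 h to 12 h, 12 h to 24 h, 24 h to day 3 and day 3 to day 7. The change of MCAO minus sham had 0 members called at each step with edgeR and with DESeq2. Of all genes, edgeR called 0.01%, 0.01%, 0.01% and 0% in this order. DESeq2 called 2 genes higher and 1 lower, 0 and 3, 5 and 0, and 26 and 31. At an unadjusted p under 0.05 there were 1, 0, 4 and 5 of the 10 members, against 7.12%, 5.08%, 8.84% and 16.2% of all genes. The largest steps were those of Gfap from 3 h to 12 h (1.96 ± 0.52), Vim from 24 h to day 3 (1.92 ± 0.59) and Nes from day 3 to day 7 (-2.10 ± 0.63), with adjusted p of 0.35, 0.35 and 0.10 (edgeR).

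In the order of the 11 group means of each gene, the ranges of neighbouring groups overlapped for every pair but 1, MCAO at 12 h and MCAO at 3 h for Gfap. The order of Gfap was MCAO day 3 (838 CPM), 24 h (515), day 7 (412), 12 h (356) and 3 h (87.5 CPM), followed by the shams and the control at 38.9 to 57.2 CPM. For Vim it was MCAO day 3 (541 CPM), day 7 (283), 24 h (124), 12 h (81.7) and 3 h (52.4 CPM), with all other groups at 24.8 to 39.3 CPM. Nefm, Nefh, Ina and Nefl had their lowest mean in MCAO on day 7, at 155, 56.5, 275 and 459 CPM.

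The glial level relative to the neuronal level was taken per library as the mean log2(CPM + 1) of the 4 glial genes minus that of the 4 neuronal genes, as a description with no test. It was -3.07 ± 0.34 (SD, n = 4) in the controls and between -3.51 and -3.16 in the means of the shams. After MCAO it was -2.95 ± 0.21 at 3 h, -2.01 ± 0.42 at 12 h, -1.43 ± 0.29 at 24 h, -0.67 ± 0.88 on day 3 and -1.04 ± 0.35 on day 7. From 12 h on the MCAO and sham ranges of each time did not overlap. On day 3 the lowest library was at -2.12 and the highest at 0.04.

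Among the 24 MCAO libraries, log2(CPM + 1) of Vim had a Pearson r of 0.70 with Gfap, 0.72 with Nes and 0.86 with Lmnb1. Among the 24 libraries without MCAO, the r of Gfap and Vim was -0.50. These are descriptions, since libraries of a group share their treatment. Over all 48 libraries and 11738 genes with at least 5 CPM, the patterns most like Gfap were those of A2m (a protease inhibitor of plasma, r = 0.92), Serpina3n (a serine protease inhibitor, 0.91), Ifitm3 (an interferon-induced membrane protein, 0.91), C4b (complement component C4, 0.90) and Hspb6 (a small heat shock protein, 0.89). Those most like Nefm were Vamp1 (a synaptic vesicle protein, r = 0.85), Lynx1 (a modulator of nicotinic receptors, 0.83), Fndc5 (0.82), Nefh (0.82) and Kcnab3 (a potassium channel subunit, 0.81).

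Other genes of the filament system gave few calls in MCAO against sham. Of 62 further intermediate filament genes (keratins, Prph, Des, Lmnb2 and others), 21 were tested and 0 were called at any time by edgeR or by DESeq2, with 3, 4, 3, 5 and 5 genes at an unadjusted p under 0.05 from 3 h to day 7. Of all genes, 8.45%, 14.6%, 8.8%, 21.6% and 23.5% were under that p at these times, so the 5 of 21 on day 3 and on day 7 are near the share of all genes. Of 6 tested plakins, which link filaments to each other and to the membrane, 0 were called by either tool, with 0, 1, 0, 0 and 2 at an unadjusted p under 0.05 against the same shares of all genes.

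Of 16 lamina partners and lamin-processing genes, Syne1, a nesprin of the nuclear envelope, was lower on day 3 (log2 fold change -0.59 ± 0.13; edgeR, adjusted p = 0.0015) and no other was called by edgeR (0.26% of all genes were lower on day 3). DESeq2 did not call Syne1, and called Emd at 3 h and Tmpo on day 7, when it called 0.29% and 5.49% of all genes. At an unadjusted p under 0.05 (edgeR) there were 2, 2, 0, 6 and 3 of the 16 from 3 h to day 7, against 8.45%, 14.6%, 8.8%, 21.6% and 23.5% of all genes. Of 11 genes of filament transport and turnover, Kif5a, a neuronal kinesin heavy chain, was lower on day 7 (-0.62 ± 0.14; edgeR, adjusted p = 0.0026), when 1.43% of all genes were lower. DESeq2 called Kif5a, Dync1h1 and Klc2 on day 7 (5.49% of all genes) and Cdk5 at 12 h (0.896% of all genes). At an unadjusted p under 0.05 (edgeR) there were 1, 3, 2, 3 and 6 of the 11 at the 5 times. On day 7 the median log2 fold change of these 11 genes was -0.41, within a range of -0.91 to -0.0062. That day the median was -0.31 for the 10 neuron markers and 0.056 for all genes.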

How the data were processed

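Per the labels and the study's methods, the authors trimmed reads of a QuantSeq 3′ library (TrimmomaticSE), removed ribosomal and mitochondrial reads (SortMeRNA), aligned to GRCm38 with STAR 2.5.2b and counted genes of Gencode vM8 with htseq-count in union mode. The deposited raw counts per gene were used, 1 table for each of 48 libraries. A matrix on a log2 scale, deposited by the authors after the variance-stabilizing transformation of DESeq2, was used only as an alternative. Symbols and coordinates came from Gencode vM21 of the same build (46488 of 46983 identifiers matched) and promoter sequences from RefSeq. Reads without a feature (median 23.5% of alignments), ambiguous reads (0.400%) and spike-ins stayed out of library sizes. Libraries held 1522668 to 2826735 counts on genes, with a median of 1935856.

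The 19970 genes whose counts summed to over 10 entered one model of the 11 groups with edgeR 4.0.16 in R 4.3.3 (TMM, quasi-likelihood test, Benjamini-Hochberg over all genes). A gene was called where the adjusted p was below 0.01 and the log2 fold change beyond 0.58 either way. Each SE was derived from the test as the absolute log2 fold change over the square root of its F. The biological coefficient of variation was 24.9%. CPM values are TMM-scaled. The 10 members and all lists were chosen with earlier results of these data known. All members are named, with every called gene of 4 further lists and the 5 genes most correlated with Gfap and with Nefm. The fit was tested on simulated data. Tables and figures were made in Python 3.11.15 with pandas 2.3.3, numpy 2.4.6 and matplotlib 3.10.9. Alternatives were DESeq2 1.42.0, its size factors, 2 other filters, only the groups compared, spike-in scaling, a block for the replicate letter, and fits that leave out 1 library at a time. Same-lettered MCAO and sham libraries of a time did not deviate together in general (correlations of -0.261 to 0.148, over 0.1 in 5 of 20 pairs), so letters were not taken as pairs.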

Additional observations from a re-analysis of the deposited data

Results flagged for a closer look

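In 4 of 110 groups of 4 or 5 libraries, the highest library stood apart from the others of its group by Dixon's test, and chance alone gives about 1 in 20 groups. Synm was at 56.3 CPM in MCAO replicate C at 24 h, while the other 3 had 40.8 to 42.2 CPM. Nefm was at 459 CPM in MCAO replicate C at 3 h and at 265 to 295 CPM in the other 4. Ina was at 859 CPM in MCAO replicate A at 3 h and at 476 to 569 CPM in the other 4. Lmna was at 67.8 CPM in MCAO replicate C on day 7, the library with the lowest Gfap and the highest Vim of its group, and at 32.1 to 41.0 CPM in the other 4.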

How the results depend on the processing

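The calls of Gfap from 12 h on and of Vim and Nes on day 3 and of Vim on day 7 held under every alternative run for MCAO against sham. The highest adjusted p over the alternatives (edgeR or DESeq2) was 0.0074 for Gfap at 12 h. On day 3 it was 0.00044 for Gfap, 0.0028 for Vim and 0.0091 for Nes, so Nes came near the limit of 0.01. The count of members called against sham was 1 at 12 h and became 2 with no filter and 2 with DESeq2. Of all genes, 69 were called higher and 13 lower at 12 h, 148 and 23 with no filter, and 141 and 38 with DESeq2. At 24 h the count of members was 1 and became 2 with no filter and 2 with only the groups compared. Over all genes the calls went from 16 higher and 2 lower to 53 and 2, and to 49 and 2. On day 7 the count of members was 4, became 5 with no filter, where Nefh was added, and 2 with spike-in scaling. It ranged from 2 to 4 with single libraries left out. Over all genes that day, 413 were higher and 285 lower, 590 and 408 with no filter, and 403 and 86 with spike-in scaling. Against control the count of members went from 0 to 1 at 3 h with DESeq2, and all genes from 23 higher and 3 lower to 72 and 8. At 24 h the members went from 1 to 2 with no filter and to 2 with only the groups compared. All genes went from 24 higher and 31 lower to 59 and 44, and to 81 and 45. On day 3 the members went from 4 to 2 with only the groups compared. All genes went from 561 higher and 56 lower to 195 and 29. With the replicate block, 3 members were called against sham on day 7, with 358 of all genes higher and 245 lower. Ina was then at -0.59 (edgeR, adjusted p = 0.017), and no other call of a member changed. The cause was not tested. Spike-in scaling moved the median of all genes to -0.22 on day 3, 0.14 on day 7 and 0.14 at 24 h.

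The glial minus neuronal difference between MCAO and sham was 1.497 at 12 h, 1.76 at 24 h and 2.41 on day 7. It became 2.00, 2.45 and 3.14 with summed CPM, 1.04, 1.24 and 1.98 without Gfap, and 1.47 at 24 h with the variance-stabilized matrix.

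Log2 fold changes near 0 that were not called changed sign with single libraries left out. They ranged at 3 h from -0.14 to 0.0684 (Nefl), -0.0561 to 0.45 (Nefm), -0.32 to 0.0745 (Nefh) and -0.11 to 0.10 (Lmnb1), at 12 h from -0.23 to 0.16 (Synm) and -0.16 to 0.12 (Nefh), at 24 h from -0.0208 to 0.20 (Synm), -0.13 to 0.16 (Nefm) and -0.033 to 0.34 (Lmna), and on day 3 from -0.12 to 0.15 (Nefm). With spike-in scaling Nefh was at -0.10 at 12 h, and on day 3 Nefm was at -0.24 and Nefh at -0.10. Depth limits most what can be said of Nes and Lmnb1, with 1565 and 2267 counts over all 48 libraries.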
